A study of Mus musculus with 12 samples.

Results

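Cytoplasmic ribosomal protein genes encode the protein parts of the ribosome outside mitochondria. They were selected by name in the platform annotation: symbols that start with Rpl or Rps and a number, with Rplp0, Rplp1, Rplp2 and Rpsa added and the Rps6k kinases and names marked as pseudogenes left out. Of 22180 genes with a probe set of their own, 67 met this rule, and 63 of the 16635 genes bright enough to be tested. The 63 comprised 23 proteins of the small subunit, 31 of the large subunit, 2 of the acidic stalk (Rplp0 and Rplp1) and 7 paralogs or copies (Rpl22l1, Rpl39l, Rpl3l, Rpl6l, Rpl7l1, Rps27l and Rps4l). RefSeq lists Rpl6l and Rps4l as pseudogenes. The other 4 members, Rpl10l, Rpl32l, Rpl37 and Rplp2, had mean log2 signals of 2.87, 2.30, 3.09 and 3.38, under the limit of 3.65 below which the dimmest 25% of genes were left out. The dimmest member above the limit was Rpl27a, at 3.96.

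All 12 samples came from colorectal tumors that azoxymethane, a carcinogen, and dextran sulfate sodium, a colitis-inducing agent, had induced in mice. The mice were wild type (labelled Stat3wt) or lacked Stat3 in their myeloid cells through a conditional deletion (Stat3dm, called deletion here). Tumor and stroma were laser-captured from paraffin-embedded tissue, which gave 4 groups of 3 samples, tumor and stroma of each genotype, every sample from 2 pooled tumors of 1 mouse. The sources used here do not give the driver of the deletion, the strain and age of the mice or how areas were chosen for capture. The question put by the series concerned stromal changes that depend on STAT3 in myeloid cells. The ribosomal protein genes are described here by tissue and by genotype.

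A ribosome is built from ribosomal RNAs and one copy of most ribosomal proteins, and its assembly in the nucleolus needs the proteins in matched amounts. Many of their mRNAs begin with a terminal oligopyrimidine (TOP) tract, a run of C and T letters through which the kinase mTOR controls their translation, and the transcription factor Myc raises ribosome production in growing cells such as those of the gut crypt. Several of the proteins are also known outside the ribosome: Rpl5 and Rpl11 bind Mdm2, the inhibitor of p53, when assembly is disturbed, and Rps27l is a target gene of p53.

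The stretches around the start site show how the promoters of the genes described most closely differ in letters. Each line gives 60 bases before and 20 bases from the annotated transcription start, 5′ to 3′ on the gene's strand, from RefSeq (GRCm38.p6). Capitals mark CTTTC and CTTCC, pyrimidine runs of the kind found at TOP starts, CCGGAAG or its reverse complement, the core letters of ETS family sites, and TATAAA, the TATA box letters. The positions are Rps27l at chr9:66946026-66946105 (plus strand), Rps27 at chr3:90213629-90213708 (minus strand), Rps13 at chr7:116334171-116334250 (minus strand), Rpl4 at chr9:64173327-64173406 (plus strand), Rpl22l1 at chr3:28805448-28805527 (plus strand) and Rpl22 at chr4:152325666-152325745 (plus strand).
Rps27l: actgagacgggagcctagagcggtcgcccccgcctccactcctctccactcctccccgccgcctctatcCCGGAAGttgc
Rps27: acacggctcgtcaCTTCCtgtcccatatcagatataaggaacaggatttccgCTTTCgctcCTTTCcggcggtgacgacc
Rps13: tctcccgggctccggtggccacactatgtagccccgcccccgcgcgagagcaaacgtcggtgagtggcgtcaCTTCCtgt
Rpl4: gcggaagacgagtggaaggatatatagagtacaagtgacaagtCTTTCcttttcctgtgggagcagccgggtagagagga
Rpl22l1: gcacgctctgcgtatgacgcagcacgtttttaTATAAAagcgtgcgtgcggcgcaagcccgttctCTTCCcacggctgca
Rpl22: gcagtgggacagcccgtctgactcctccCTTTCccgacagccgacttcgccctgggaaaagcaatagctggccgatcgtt

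Promoters were found for 52 of the 67 members among 27025 in the RefSeq table. CTTTC on the gene's strand within 25 bases of the start occurred in 26.9% of the members' promoters and in 6.6% of all promoters. CTTCC in the same window occurred in 26.9% of members and 10.9% of all. Either run was present in 46.2% of members against 16.6% of all, and the windows of 3 members held both with shared letters. CCGGAAG on either strand, from 250 bases before to 50 after the start, was found in 42.3% of members and 9.12% of all promoters. In 8 members it shared letters with CTTTC or CTTCC anywhere in this longer window. Its reverse complement, CTTCCGG, contains CTTCC, so each match of the complement is counted there by construction. TATAAA in the 50 bases before the start was found in 1 member, Rpl22l1, which is 1.92% against 2.88% of all. Related genes shared some of these letters. Of 62 promoters of mitochondrial ribosomal proteins, 35.5% held CCGGAAG, 25.8% CTTCC and 3.23% CTTTC. Of 13 promoters of translation factors with TOP mRNAs, 61.5% held either run and 23.1% CCGGAAG. These are matches of letters and show no binding or use of a site.

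The arrays differed in how widely their log2 signals spread, with an SD of 1.65 to 1.91 in tumor and 1.60 to 1.76 in stroma. The median of the members' deviations from their own 12-array means correlated with this SD at r = 0.86 over the 12 arrays, and the same median over all tested genes at 0.92. Both measures come from the same signals. Deletion stroma 1 stood apart. It was the lowest of the 12 arrays for 43 of the 63 members, and its median deviation for a list of neutrophil genes was 1.5, against -0.43 to 0.11 on the other 11 arrays. The part of array spread and of neutrophil RNA in the results was not tested beyond the alternatives named.

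Epithelial markers, which define the tumor compartment, followed the labels of the captured areas in wild type and only in part in the deletion. The summed signal of 18 epithelial genes was 12.96 to 13.53 (log2) in wild type tumor and 12.06 to 12.39 in wild type stroma. It was 12.88 to 13.58 in deletion tumor and 11.63 to 12.97 in deletion stroma, so the deletion groups overlapped. Array signals of this kind have no zero. Between tissues the members' values moved with these markers, and among stroma samples the extremes differed. Deletion stroma 1 had the lowest median deviation of the members (-0.47) and the highest epithelial one of the stroma samples (0.07). That epithelial value lay above the one of wild type tumor 2 (0.05). Deletion stroma 2 had the lowest epithelial median deviation (-1.18), with -0.10 for the members. Over the 12 arrays these medians correlated at r = 0.59. The members' median correlated at 0.87 with that of 14 cell cycle genes, at -0.67 with that of the neutrophil genes and at 0.88 with that of all tested genes. The parts of epithelial content and of cell division in the members' values were not tested. In such bulk samples fewer cells of a type and less RNA per cell cannot be told apart.

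Most ribosomal protein genes had lower signals in stroma than in tumor. The median deviation of the 63 members was 0.23, 0.13 and 0.32 in wild type tumor 1 to 3 and -0.23, -0.12 and -0.10 in wild type stroma 1 to 3. The wild type groups did not overlap. It was -0.14, 0.10 and 0.33 in deletion tumor and -0.47, -0.10 and 0.03 in deletion stroma, where the groups overlapped. The deletion groups varied more between samples than the wild type groups, with an SD (n = 3) of 0.24 and 0.26 against 0.10 and 0.07.

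**Figure D1:**
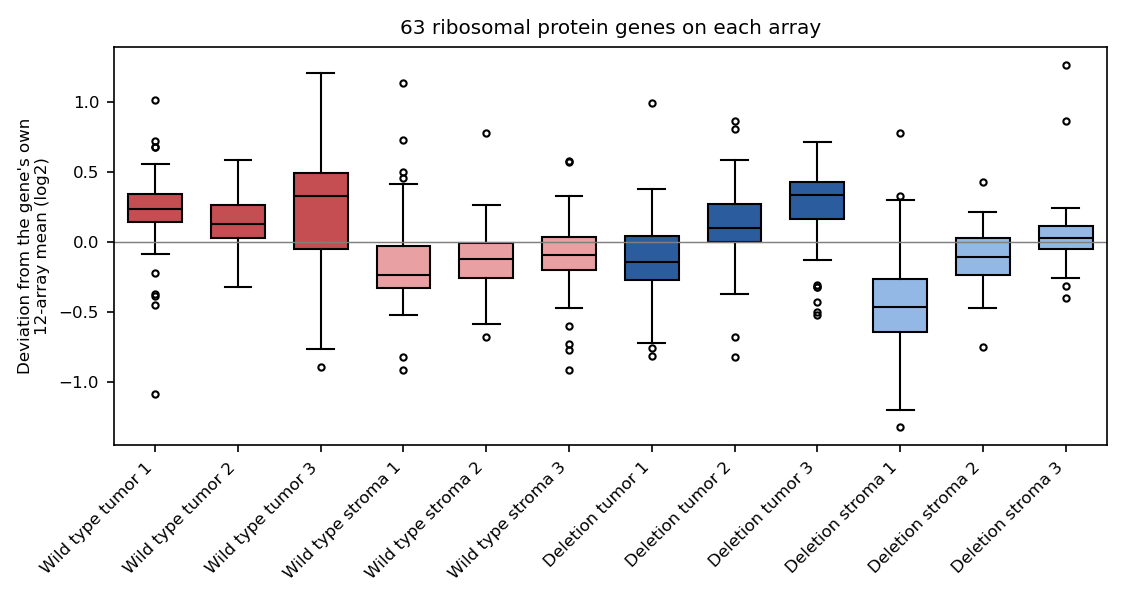
Deviation of the 63 tested ribosomal protein genes from each gene's own mean over the 12 arrays (log2, vertical axis) on each array, as boxes of the middle 50% with the median as a line, whiskers to 1.5 times the box length and circles beyond. The medians of wild type tumor lie at 0.13 to 0.32, and deletion stroma 1 has the lowest median, -0.47.

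In wild type mice the median stroma minus tumor difference of the members was -0.37 (log2), against -0.04 over all 16635 genes. Of the 63 members 52 lay below 0, against 53.3% of all genes. In 35 members every stroma sample was lower than every tumor sample, against 15.0% of all genes, and in 1, Rpl22l1, every stroma sample was higher (8.88% of all). In the limma fit 0 members and 0 of all genes were called at adjusted p 0.05, and 21 members had an unadjusted p under 0.05, against 16.7% of all genes. The smallest adjusted p of a member was 0.186, for Rps27l.

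In deletion mice the median difference was -0.30, against -0.03 over all genes, and 56 members lay below 0, against 54.5%. The groups did not overlap in 8 members lower in stroma, against 7.16% of all genes, and in Rpl22l1 as the 1 member higher (6.57%). The limma fit called 0 members and 0 of all genes, and with the replicate number as a block 0 members and 152 of all genes. An unadjusted p under 0.05 was reached by 9 members, against 9.68% of all genes. The median of the members was -0.13 without deletion stroma 1 and -0.18 without deletion tumor 3.

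The wild type and the deletion comparison share no sample. In both of them 51 of the 63 members were lower in stroma and 6 were higher. The 6 were Rpl22l1, Rpl39l, Rpl3l, Rpl5, Rps16 and Rps20. The other 6, Rpl11, Rpl30, Rpl34, Rpl37a, Rps15 and Rps4l, had opposite signs in the 2 genotypes. Of all 16635 genes 6435 were lower in both, 5139 higher in both and 5061 opposite.

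**Figure D2:**
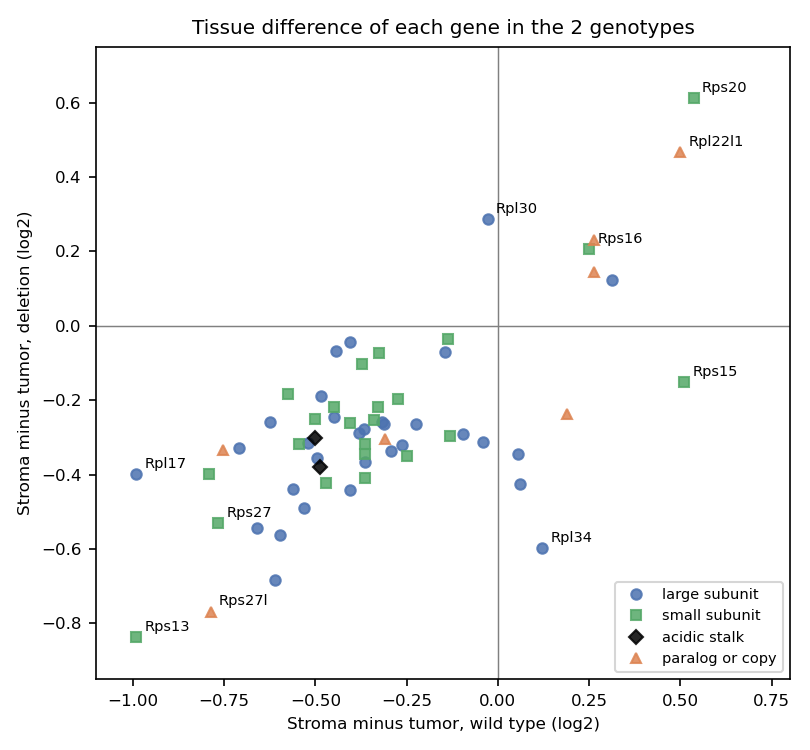
Stroma minus tumor difference (log2) of each of the 63 tested genes in wild type (horizontal axis) and deletion mice (vertical axis), marked by subunit, with lines at 0. Rps13 and Rps27l lie farthest toward the lower left, and Rps20 and Rpl22l1 lie at the upper right.

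The median differences of the structural groups were alike in size. In wild type mice it was -0.36 for the small subunit (20 of 23 below 0), -0.38 for the large subunit (27 of 31) and -0.49 for the stalk (2 of 2). In deletion mice these medians were -0.25 (21 of 23), -0.32 (29 of 31) and -0.34 (2 of 2). The 7 paralogs and copies were mixed, with a median of 0.19 and 3 of 7 below 0 in wild type, and a median of -0.24 in the deletion.

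Averaged over both genotypes, which uses all 12 arrays, the median difference was -0.32 against -0.03 over all genes, and 55 of 63 members lay below 0, against 53%. An unadjusted p under 0.05 was reached by 30 members, against 22.3% of all genes. The limma fit called 1 member, Rps27l, against 2.55% of all genes (425 called in either direction). In 2 members, Rps27l and Rplp1, all 6 stroma samples were lower than all 6 tumor samples, against 1.33% of all genes, and in 0 they were all higher (0.721%). The median difference stayed below 0 under each of the 22 alternatives computed. With the array SD as a covariate it was -0.18, and within each genotype it was -0.16 in wild type and -0.20 in the deletion.

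Rps27l, the p53-responsive paralog of Rps27, fell in stroma. Its log2 signal was 7.70, 7.48 and 7.20 in wild type tumor and 6.59, 6.88 and 6.55 in wild type stroma. In deletion tumor it was 7.41, 7.37 and 7.34, and in deletion stroma 6.47, 6.56 and 6.78. The lowest tumor sample lay above the highest stroma sample in each genotype and across them. The difference over both genotypes was -0.78 ± 0.14 (SE, 95% confidence interval -1.07 to -0.49), a 1.72-fold lower signal (adjusted p = 0.0259 in limma, lower in 3 of 3 samples of each stroma group). It was -0.79 ± 0.19 in wild type and -0.77 ± 0.19 in the deletion (adjusted p = 0.186 and 0.218 in limma).

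The call of Rps27l was near the threshold. It was made under 15 of 22 alternatives, with a difference of -0.85 to -0.54 and an adjusted p of 0.000830 to 0.101 in limma. It ended after quantile normalization (adjusted p = 0.101) and without the 2 arrays of widest spread, wild type tumor 3 and deletion tumor 3 (0.0613). It also ended without wild type stroma 3 (0.0646), wild type tumor 1 (0.0700), deletion stroma 2 (0.0823), deletion tumor 2 (0.0804) or deletion tumor 3 (0.0660), each left out alone.

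The parent Rps27, a zinc finger protein of the small subunit, had signals of 6.17, 5.79 and 5.71 in wild type tumor and 4.85, 5.18 and 5.35 in wild type stroma. In deletion tumor its signals were 6.05, 6.63 and 6.17, and in deletion stroma 6.09, 5.5 and 5.67. The wild type groups were apart and the deletion groups overlapped through deletion stroma 1. The difference over both genotypes was -0.65 ± 0.17 SE and missed the threshold (adjusted p = 0.0528 in limma). It passed without deletion stroma 1 (-0.73, adjusted p = 0.0331), without deletion tumor 1 (0.0305), with array weights (0.00113), with 50% of genes filtered (0.0451) and with the replicate block (0.0340), 5 of 22 alternatives.

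Rps13, a small-subunit protein, had the lowest difference of all members over both genotypes, -0.91 ± 0.25 SE (adjusted p = 0.0678 in limma). Its signal was 9.31, 8.62 and 8.65 in wild type tumor and 8.06, 8.01 and 7.53 in wild type stroma. It was 8.06, 9.10 and 8.78 in deletion tumor and 6.98, 7.98 and 8.47 in deletion stroma. The wild type groups were apart, and in the deletion stroma 3 lay above tumor 1. The difference passed without deletion tumor 1 (-1.06, adjusted p = 0.0272) and not without deletion stroma 1 (-0.71, 0.0954).

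Among large-subunit proteins, Rpl4, which lines part of the exit tunnel, had signals of 10.50, 10.23 and 10.52 in wild type tumor and 9.75, 9.83 and 9.996 in wild type stroma. In deletion tumor it was 10.13, 10.56 and 10.34, and in deletion stroma 9.67, 10.17 and 9.87. Deletion stroma 2 lay above deletion tumor 1, and the wild type groups were apart. The difference over both genotypes was -0.50 ± 0.14 SE (adjusted p = 0.0715 in limma). Rpl29 had a difference of -0.51 ± 0.15 SE (adjusted p = 0.0806 in limma).

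The stalk proteins recruit translation factors to the ribosome. Rplp1 had signals of 12.12, 12.06 and 12.18 in wild type tumor and of 11.56, 11.60 and 11.70 in wild type stroma. Its signals were 11.86, 11.85 and 12.18 in deletion tumor and 11.54, 11.64 and 11.80 in deletion stroma. Every stroma sample was lower than every tumor sample, by a small step. The difference over both genotypes was -0.40 ± 0.13 SE (adjusted p = 0.0921 in limma). Rplp0 had -0.43 ± 0.14 SE (0.0978). Rpsa, a small-subunit protein also known as a laminin receptor, had -0.43 ± 0.17 SE (0.151).

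Among the paralogs, Rpl22l1, the relative of the large-subunit protein Rpl22, lay on the other side. Its signal was 5.25, 5.32 and 5.41 in wild type tumor and 5.67, 5.6 and 6.21 in wild type stroma, 5.62, 5.66 and 5.12 in deletion tumor and 5.93, 6.07 and 5.79 in deletion stroma. Stroma and tumor were apart in each genotype, and across genotypes wild type stroma 2 lay below deletion tumor 1 and 2. The difference over both genotypes was 0.48 ± 0.15 SE and missed the threshold (adjusted p = 0.0945 in limma). Rpl22 itself, at a low mean signal of 4.87, had -0.11 ± 0.14 SE (0.636).

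**Figure D3:**
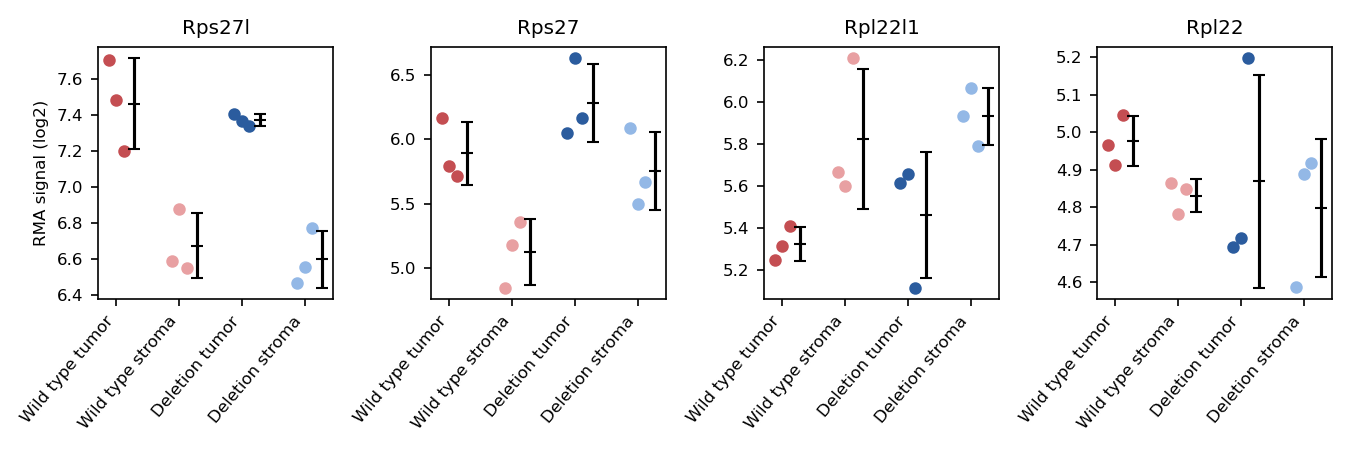
RMA signal (log2, a separate vertical axis for each gene) of Rps27l, Rps27, Rpl22l1 and Rpl22 in the 4 groups of 3 samples, with the mean and SD as a bar beside the points. Rps27l has tumor points above all stroma points, and Rpl22l1 has stroma points above the tumor points of the same genotype.

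The other paralogs and their partners had no tissue call in the limma fit of the 4 group means. Over both genotypes Rpl6l was called with the replicate block, with array weights and without deletion tumor 1. Rpl7 was called with the block and without deletion tumor 1. Rpl3l, known from muscle, had a difference over both genotypes of 0.25 and Rpl3 of -0.42. Rpl39l, known from testis, had 0.20 and Rpl39 -0.18. Rpl7l1 had -0.31 and Rpl7 -0.52. The copies Rps4l and Rpl6l had -0.02 and -0.54, beside -0.20 for Rps4x and -0.24 for Rpl6. Rpl3l, Rpl39l, Rpl39, Rps4l and Rpl6 were dim, with mean signals of 4.09, 4.38, 4.13, 4.63 and 4.63. The differences between paralog and partner were not tested.

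Of the 63 members 8 lay above 0 over both genotypes. They were the paralogs Rpl22l1, Rpl3l and Rpl39l with Rpl5, Rpl30, Rps15, Rps16 and Rps20, and none was called in limma. Rps20, a small-subunit protein, had the highest difference, 0.57 ± 0.39 SE (adjusted p = 0.389 in limma), and the widest range over the 12 arrays of all members, 2.46. Its signal was 7.19, 8.07 and 9.48 in wild type tumor and 8.44, 9.05 and 8.85 in wild type stroma, 7.76, 7.46 and 7.97 in deletion tumor and 7.07, 8.41 and 9.54 in deletion stroma. Samples of 1 group thus differed more than the groups did. Its dimmer second probe set had a difference of -0.44, opposite in sign. The difference was 0.31 without wild type tumor 1, 0.88 without wild type tumor 3, 0.89 without deletion stroma 1, 0.28 without deletion stroma 3 and 0.07 as a mean over the probe sets.

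Members commonly used as reference genes lay with the majority. Rpl32 had a difference over both genotypes of -0.58 ± 0.18 SE, Rps18 of -0.45 ± 0.15 SE and Rpl19 of -0.44 ± 0.16 SE (adjusted p = 0.0878, 0.104 and 0.123 in limma). Their signals ranged over 1.46, 1.04 and 1.09 (log2) across the 12 arrays, Rplp0 over 0.79 and Rplp1 over 0.64. Among members with known roles outside the ribosome, Rps3, a DNA repair and NF-kB partner, had -0.33. Rps6, the substrate of S6 kinase, had -0.33, and Rps19, the gene most often mutated in Diamond-Blackfan anemia, had -0.30. The Mdm2 binders Rpl11 and Rpl5 had -0.15 and 0.22, at low mean signals of 4.40 and 4.39. None of these was called in limma.

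**Figure D4:**
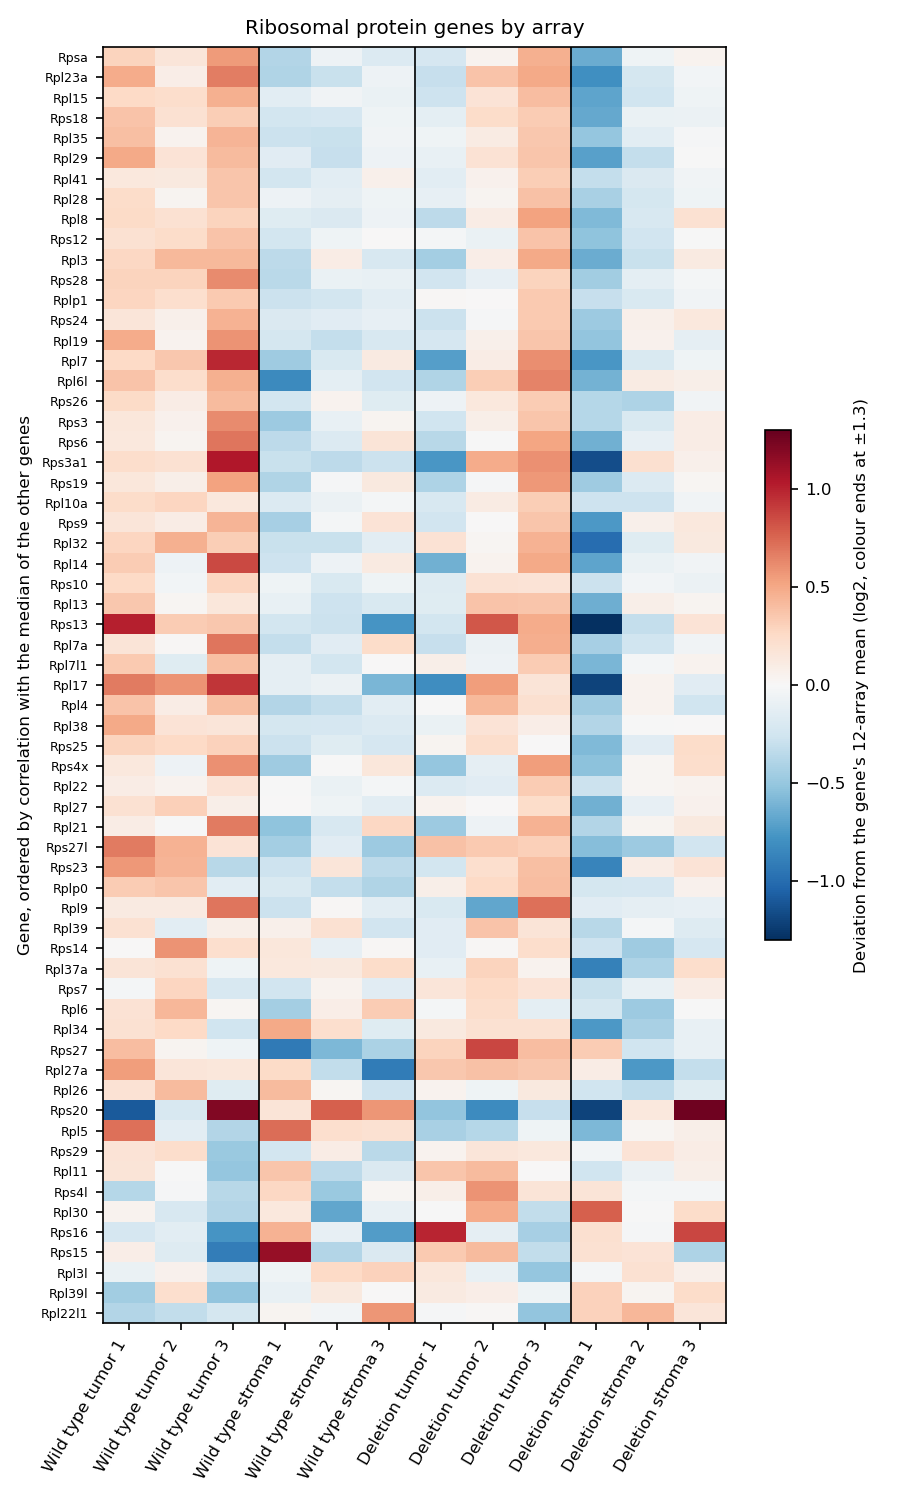
Deviation of each of the 63 tested genes (rows) from its own 12-array mean on each array (columns), in log2 by colour, with rows ordered by their correlation with the median of the other members. Most rows are red in wild type tumor and blue in deletion stroma 1, and the lowest rows, such as Rpl22l1, Rpl39l and Rpl3l, run the other way.

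Most members varied together across arrays. The median correlation between pairs of members was 0.49 over the 12 arrays, with 76.4% of pairs above 0, against -0.001 between pairs of all genes. It was 0.56 without the paralogs and copies. Related lists had values as high or higher. The median was 0.80 among TOP translation factors, 0.50 among ribosome assembly factors and 0.49 among mitochondrial ribosomal proteins. The 12 points share the tissue contrast and the array spread, so these values are descriptions. With the median of the other members, 37 of the 63 correlated above 0.8, the highest being Rpsa at 0.98 and Rpl23a and Rpl15 at 0.97. Another 8 correlated below 0: Rpl22l1 (-0.72), Rpl39l (-0.61), Rpl3l (-0.60), Rps15 (-0.55), Rps16 (-0.52), Rpl30 (-0.50), Rps4l (-0.24) and Rpl11 (-0.06). Of the 36 members with a mean signal of at least 8, 32 correlated above 0.8.

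Members were also set beside other genes of like signal. Of the 18 members with a mean log2 signal of at least 10, all 18 lay below 0 over both genotypes, with a median of -0.37. The other 110 genes in that range had a median of -0.09, with 63.6% below 0. Between 8 and 10 the 18 members and the other genes both had a median of -0.38. Between 6 and 8 it was -0.24 for 11 members and -0.26 for the others, and below 6 it was -0.13 for 16 members and 0.03 for the others. In wild type alone the medians of members and others were -0.48 and -0.45 between 8 and 10, and -0.40 and -0.21 at 10 and above. In the deletion alone they were both -0.30 between 8 and 10, and -0.33 and 0.01 at 10 and above. These are counts and medians, and no test was made of the list.

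**Figure D5:**
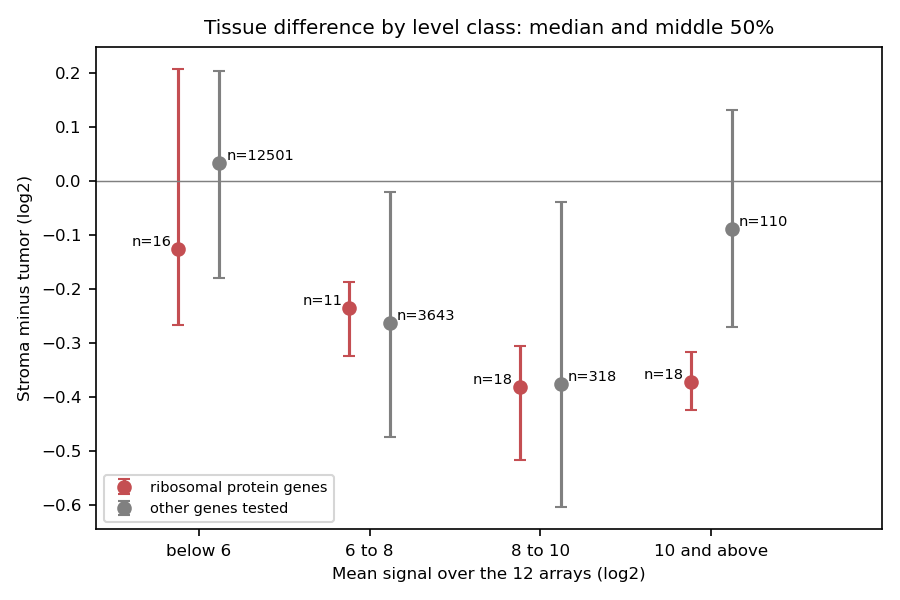
Median (point) and middle 50% (bar) of the stroma minus tumor difference over both genotypes (log2, vertical axis) for ribosomal protein genes and other tested genes, by mean signal class (log2, horizontal axis), with the number of genes beside each point. The classes are level with each other from 6 to 10, and at 10 and above the members lie at -0.37 and the others at -0.09.

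Other genes of ribosome production and translation lay the same way over both genotypes, with few calls in limma. Of 19 translation factors and other TOP mRNA genes all 19 were below 0, with a median of -0.35 and 0 called. Of 41 assembly factors 37 were below 0, with a median of -0.25 and 1 called: Nhp2, a protein of the box H/ACA particles that modify ribosomal RNA, fell by 0.67 in stroma (adjusted p = 0.0464 in limma). Of 69 mitochondrial ribosomal proteins, which are encoded apart and serve the mitochondrial ribosome, 66 were below 0, with a median of -0.38 and 6 called. Mrpl32 fell by 1.05 and Mrpl42 by 1.13 (adjusted p = 0.0283 and 0.0294 in limma). Myc had -0.62 and the cap-binding factor Eif4e -0.68 (adjusted p = 0.0541 and 0.0666), and the p53 targets Cdkn1a and Mdm2 had -0.50 and -0.33 (0.255 and 0.283). For comparison, 9 of 18 epithelial genes and 8 of 8 leukocyte genes were called in limma, such as Krt18, which fell by 1.21 in stroma, and Selplg, which rose by 1.22. None of the calls named here held without wild type stroma 3, deletion tumor 2 or deletion tumor 3, since 0 of all genes were then called.

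The deletion of Stat3 in myeloid cells was compared with wild type in stroma first. The median difference of the members was -0.06, against -0.02 over all genes, and 40 of 63 lay below 0, against 52.8%. The limma fit called 0 members and 0 of all genes, and 2 members had an unadjusted p under 0.05, against 5.07% of all genes. The groups did not overlap in 1 member higher in the deletion (Rps27, against 5.13% of all genes) and 2 lower (Rpl5 and Rps14, against 5.62%). Without deletion stroma 1 the median was 0.10, so its sign rested on that array. It was -0.11 without wild type stroma 1, -0.01 without wild type stroma 3, -0.10 without deletion stroma 2 and -0.16 without deletion stroma 3.

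Rps27, with mean signals (± SD, n = 3) of 5.13 ± 0.26 in stroma of wild type and 5.75 ± 0.30 in stroma of deletion mice, had a difference of 0.63 ± 0.23 SE (adjusted p = 0.811 in limma) and of 0.46 without deletion stroma 1. Over both tissues its difference was 0.51 ± 0.17 SE (0.293). Rpl34, a large-subunit protein, had signals of 7.74, 7.46 and 7.08 in wild type stroma and 6.498, 6.82 and 7.14 in deletion stroma, a difference of -0.61 ± 0.23 SE (0.841) and of -0.45 without deletion stroma 1. The groups overlapped through wild type stroma 3 and deletion stroma 3. Rpl5 was 5.11, 4.60 and 4.58 in wild type stroma and 3.802, 4.41 and 4.46 in deletion stroma, a difference of -0.54 (0.999) and of -0.33 without deletion stroma 1.

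In tumor the median difference between deletion and wild type was -0.15, against -0.01 over all genes, and 48 members lay below 0, against 51.3%. Most of all genes are dimmer than the members. Between mean signals of 8 and 10 the median was -0.21 for members and -0.14 for other genes, with 64.8% of the others below 0. Between 6 and 8 it was -0.08 and -0.15, and at 10 and above -0.16 and -0.07. The limma fit called 0 members, against 0.018% of all genes (3 called), and 2 members had an unadjusted p under 0.05, against 6.26% of all genes. The groups did not overlap in 1 member higher in the deletion (Rps4l, against 4.05%) and 2 lower (Rpl17 and the small-subunit gene Rps25, against 5.46%). The median was -0.03 without deletion tumor 1, -0.10 without wild type tumor 3, -0.26 without deletion tumor 3, -0.04 after quantile normalization and -0.002 with the array SD as a covariate. Rpl17, a large-subunit protein, had signals of 5.999, 5.90 and 6.25 in wild type tumor and 4.51, 5.87 and 5.49 in deletion tumor, a difference of -0.76 ± 0.35 SE (adjusted p = 0.795 in limma). Without deletion tumor 1 the difference was -0.37, and with array weights -0.29. The pseudogene Rps4l had 4.26, 4.61 and 4.27 in wild type tumor and 4.70, 5.21 and 4.79 in deletion tumor, a difference of 0.52 ± 0.23 SE (0.770).

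Averaged over both tissues, the median difference between deletion and wild type was -0.12, against -0.01 over all genes, with 49 members below 0, against 52.6%. The limma fit called 0 members, against 0.283% of all genes (47 called). An unadjusted p under 0.05 was reached by 2 members, Rps27 and Rpl5, against 8.23% of all genes, and 0 members had groups of 6 that did not overlap, against 0.168% of all genes higher and 0.367% lower in the deletion. The median was -0.05 without deletion tumor 1, -0.03 without deletion stroma 1 and -0.04 with the array SD as a covariate. The tissue difference in the deletion minus that in wild type had a median of 0.08, against 0.02 over all genes, and 21 of 63 members lay below 0, against 47.5% of all genes. Between mean signals of 8 and 10 the median was 0.20 for members and 0.18 for other genes, and at 10 and above 0.10 and 0.19. The sign of the median over all 63 members was not stable. It was -0.04 without deletion tumor 1, -0.03 without deletion stroma 3, -0.04 after quantile normalization and -0.04 with the array SD as a covariate, and it was 0.21 without deletion stroma 1 and 0.17 without deletion tumor 3. The limma fit called 0 members and 0 of all genes. There 1 member had an unadjusted p under 0.05, against 2.41% of all genes: Rpl34, with -0.72 ± 0.33 SE (adjusted p = 0.995 in limma) and -0.56 without deletion stroma 1.

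The identity of the signals has limits. Ribosomal protein genes have many near-identical processed copies in the mouse genome, so the signal of a member may include RNA of a copy and is uncertain to that extent. Of the 67 members 20 also had a probe set listed with several symbols, which was not used. Another 12 symbols that meet the rule, among them Rpl10, Rpl13a and Rps2, occurred only on such shared probe sets and were not analysed here. Of 25 members with several probe sets of their own, 11 had probe sets of opposite sign in the tissue difference over both genotypes, Rps20, Rps3a1, Rps18 and Rpl7 among them.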

How the data were processed

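The submitters' processing notes name RMA and Affymetrix Expression Console 1.3.1, and the table the authors deposited holds a log2 signal for each of 41345 probe sets. RMA makes arrays share a distribution of probe signals, so a shift common to most genes is removed. Per the labels' protocols, 50 ng of RNA from fixed tissue was amplified and labelled for each array. The sources used here do not give the genome build behind the probe sets. The number of arrays limits the precision.

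The members and the gene lists were chosen with earlier results of these data known. Of 25335 probe sets in the platform annotation, 23521 had 1 gene symbol, 1814 had several and were not used, and 16010 probe sets were not listed. Each gene was represented by its probe set of highest mean, and levels of different genes were not compared beyond classes of signal. A mean for each of the 4 groups was fitted over all 12 arrays in limma 3.58.1 (R 4.3.3, lmFit and eBayes), two-sided, with Benjamini-Hochberg adjustment over 16635 genes and a threshold of 0.05. All adjusted p-values are from limma. The script was tested on simulated data. The p-values measure the spread between these samples.

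Members named with values were the 5 with the smallest p and the highest and lowest difference in each of the 7 contrasts, the paralogs and their partners, the stalk proteins and Rpsa, and fixed reference genes and genes with roles outside the ribosome. From other lists, the 2 with the smallest p were eligible. Members named for an opposite sign, a non-overlap or a high correlation were chosen after their values were seen, as were Myc, Eif4e, Cdkn1a and Mdm2 where they fall outside the rule. Samples are numbered 1 to 3 in each group, and the labels do not say that a number marks 1 mouse. Deviations of same-numbered tumor and stroma samples correlated at 0.44, -0.0041 and 0.51 in wild type and at 0.12, 0.16 and 0.30 in the deletion. Samples of different number correlated at -0.50 to 0.33 in wild type and at -0.29 to 0.12 in the deletion. Deletion tumor 1 correlated with stroma 2 as closely as with stroma 1. Whether the numbers pair the samples was thus not settled in either genotype. Alternatives were the replicate block, quantile normalization, median centring, the array SD as a covariate, array weights, leaving out the 2 widest arrays or each sample, other filters, the mean over probe sets and a robust trend fit.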

Additional observations from a re-analysis of the deposited data

How the results depend on the processing

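Only 3 samples a group and dim probe sets limit what single members can show. The number of members called in the tissue comparison over both genotypes was 1 (425 of all genes). It was 14 with the replicate block (1876 of all genes): Rpl17, Rpl22l1, Rpl23a, Rpl27a, Rpl29, Rpl32, Rpl4, Rpl6l, Rpl7, Rps13, Rps18, Rps27, Rps27l and Rps3a1. All of these but Rpl22l1 were lower in stroma by the probe set used. Dimmer probe sets were higher in stroma for Rps3a1 (0.52), Rpl7 (0.14) and Rps18 (0.11 and 0.06). The unused probe sets of Rpl23a, Rpl29 and Rpl4 were lower in stroma. The number called was 21 with array weights (2637 of all genes), which added Rplp0 and Rplp1, lower in stroma, and Rps20, higher in stroma by 1.25, among others. The weights were 3.66 for wild type tumor 1, 0.29 for wild type tumor 3 and 4.20 for deletion tumor 2. Each tumor group thus rested mostly on 1 array there. The number called was 2 with 50% of genes filtered (482 of all genes), 2 with the mean over probe sets (420), 0 after quantile normalization (440) and 0 without the 2 widest arrays (0). Leaving out 1 sample gave 0 to 9 members (0 to 1296 of all genes): 9 without deletion tumor 1, 2 without wild type stroma 1 or deletion stroma 1, and 0 without wild type stroma 3, wild type tumor 1, deletion stroma 2, deletion tumor 2 or deletion tumor 3. In wild type the replicate block called 1 member, Rpl17 (adjusted p = 0.0482 in limma), and 138 genes in all, and array weights called 10 members and 1004 genes in all. In the deletion the block called 0 members and 152 genes in all, against 0 without it, and array weights called 2 members and 611 genes. Array weights called 1 member between genotypes in tumor, Rps4l (adjusted p = 0.0286 in limma), with 303 genes in all, and Rps4l as the 1 member over both tissues, with 430 genes in all. The wild type tissue median was -0.16 with the array SD as a covariate, and the cause was not tested. No called value changed sign under the alternatives computed.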
